A study of Rattus norvegicus with 9 samples.

Results

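Odf2l encodes a coiled-coil protein of the centrosome that is related in sequence to ODF2, a protein of centriolar appendages. It was read by the catalogue probe A_44_P288463, which the array files assign to the RefSeq transcript NM_001134708, and it is 1 of 29 protein-coding genes that could be named among 38804 probes. The probe was spotted 10 times on each array, so the gene had 90 spot readings over 9 arrays. Odf2l was chosen on measured values, since its higher level on the exposed than on the control arrays was already known. Its levels and its differences from control are therefore given as a description, with no test, and support nothing beyond themselves.

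The samples were whole lungs of male Wistar rats, entered at 6 to 8 weeks of age, with 3 rats in each group and 1 array per rat. The cigarette smoke (CS) group and the fine particulate matter (PM2.5) group, both described as rat models of chronic obstructive pulmonary disease, were exposed for 90 days, and the control group inhaled NS for the same time. The abbreviation NS is not spelled out, and exposure doses are not given in the sources used here. Lungs were archived at 90, 91 and 92 days for replicates 1, 2 and 3 of each exposed group and at 90 days for all control rats. A single slide, scanned on the later of 2 days, held the 3 control arrays, and the 6 exposed arrays came from 3 other slides scanned on the earlier day. Arrays with the same recorded scan time were taken to be on 1 slide. Control status, slide and scan day cannot be told apart.

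Centrosomes organise microtubules in most animal cells, and in resting or multiciliated cells their centrioles become the basal bodies from which cilia grow. In the lung, multiciliated cells of the airway surface carry many such basal bodies and move mucus, while many other cells can bear a single primary cilium. The product of Odf2l, also called BCAP, has been located to centriolar satellites and basal bodies and has been described as an inhibitor of cilium formation. RefSeq lists 13 transcripts of rat Odf2l, and which of them the probe detects was not analysed here. Of 102 centrosome and cilium genes listed for comparison, Odf2l was the only 1 named on the array, and none of 83 markers of lung cell types was named (0 of 83). The labelled tissue could therefore not be checked against its markers, and no other member of the pathway can be set beside Odf2l. In whole lung, more cells that contain the transcript and more transcript per cell cannot be told apart.

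The sequence at the start of the gene is shown because genes of cilia are often controlled through X-box elements, the binding sites of RFX transcription factors, close to their start. It is the RefSeq window on GRCr8, chr2:236696139-236696438, plus strand, from 250 bases before to 50 bases after a transcript start. The capitals mark the letters found by 3 searches on both strands, which were chosen after the sequence had been seen. The arrays did not measure binding or activity here.

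Odf2l: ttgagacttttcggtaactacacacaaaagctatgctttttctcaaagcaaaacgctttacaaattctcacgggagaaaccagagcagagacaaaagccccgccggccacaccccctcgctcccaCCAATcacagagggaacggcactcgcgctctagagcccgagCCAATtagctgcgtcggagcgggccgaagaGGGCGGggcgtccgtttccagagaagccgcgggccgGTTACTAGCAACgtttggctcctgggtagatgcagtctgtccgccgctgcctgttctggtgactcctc

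The first search was for the inverted arms GTTNC and GNAAC of an X-box with 0 to 4 bases between them, a pattern that reads the same on both strands. It found GTTACTAGCAAC, which ends 6 bases before the start. The same pattern was present in 2.51% of 33469 RefSeq windows of this length. The letters CCAAT occurred at 2 places in the Odf2l window, against at least 1 place in 37.5% of all windows. The GC box letters GGGCGG occurred once, and 33.1% of all windows held them. The window had a GC content of 57.7% and 23 CG dinucleotides, where the medians over all windows were 51.7% and 7. None of the 3 patterns overlapped another in this window, and a match of letters is not evidence of a bound site.

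The 10 spots gave a precise reading of Odf2l on every array. All 90 spots were well above background, none was saturated, and the median spot was 12.6 to 20.3 times as bright as its local background. The SD over the spots of an array was 0.06 to 0.12 log2 units, which gives an SE of 0.02 to 0.04 for the array's mean. After scaling to the 75th percentile, the pooled SD between arrays of the same group was 0.20 log2 units. By group it was 0.06 in control, 0.13 in CS and 0.32 in PM2.5 lungs. Spot noise was thus small beside the differences between exposed animals and arrays, but less so among the control arrays. The scanner software flagged 4 of the 90 spots as outliers, and these were left out. On control 3 the flagged spot had a signal of 929, while the other 9 spots of that array lay between 217 and 245. The other 3 flagged spots were the spot in grid row 54, on CS 3, PM2.5 1 and PM2.5 2. That position read below the array's own mean on 9 of 9 arrays.

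As scanned, Odf2l was not brighter on the exposed arrays. Its geometric mean signal was 222, 228 and 231 on control arrays 1 to 3, in the scanner's arbitrary units. It was 224, 194 and 207 on CS arrays 1 to 3. It was 139, 228 and 241 on PM2.5 arrays 1 to 3. None of the CS arrays and 1 of the PM2.5 arrays exceeded every control array. The arrays themselves differed in brightness. The 75th percentile of the signal over all probes was 351, 354 and 339.6 on control arrays, 219, 216 and 195 on CS arrays and 166, 180.1 and 269 on PM2.5 arrays. Odf2l thus stood below the 75th percentile on all 3 control arrays, above it on CS 1, CS 3 and PM2.5 2, and below it on CS 2, PM2.5 1 and PM2.5 3.

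**Figure D1:**
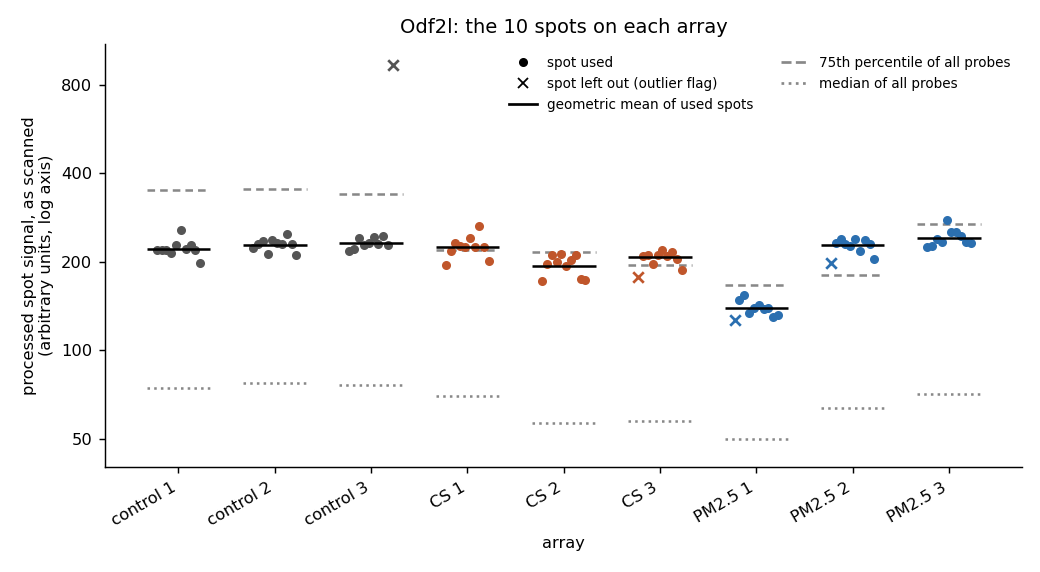
Processed signal of each Odf2l spot as scanned (log axis, arbitrary units) on the 9 arrays, with the geometric mean of the spots used and the 75th percentile and median of all probes on that array. Odf2l lies at about the same height on control and CS arrays (194 to 231), while the dashed 75th percentile is at 339.6 to 354 on control and 195 to 219 on CS arrays; the flagged spot of control 3 is the cross at 929.

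After each array's 75th percentile was subtracted on the log2 scale, Odf2l stood at −0.66, −0.63 and −0.56 on control arrays 1 to 3. On CS arrays 1 to 3 it stood at 0.04, −0.16 and 0.09. On PM2.5 arrays 1 to 3 it stood at −0.26, 0.34 and −0.16. All 6 exposed arrays were above all 3 control arrays, and CS and PM2.5 overlapped. The same held for 45.2% of all 37643 probes tested, so this ordering does not set Odf2l apart. The mean level was −0.62 ± 0.06 (SD, n = 3) in control, −0.01 ± 0.13 (SD, n = 3) in CS and −0.03 ± 0.32 (SD, n = 3) in PM2.5 lungs. The order of the means was CS, PM2.5 and control, and the first pair differed by less than the spread within either group. The PM2.5 arrays varied most, with PM2.5 2 as the highest and PM2.5 1 as the lowest of the 6 exposed arrays, although both were on the same slide.

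In CS lungs Odf2l was 0.61 log2 units above control (SE 0.16), which is 1.52-fold. The difference was positive at 10 of 10 spot positions, where it ranged from 0.42 to 0.67. Apart from the spots left out, these positions share the same 6 arrays and are not replicates of the exposure. No call is given for Odf2l here, and 47.2% of all probes passed an adjusted p below 0.05 in the limma fit of this comparison. The median difference over all probes was 0.45 log2 units in this scaling, and 66.4% of probes had a smaller difference than Odf2l. The difference of Odf2l was thus close to the general shift against the 75th percentile.

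In PM2.5 lungs Odf2l was 0.59 log2 units above control (SE 0.16), which is 1.51-fold. The difference was again positive at 10 of 10 spot positions, from 0.40 to 0.67. The lowest value, at grid row 54, rests on PM2.5 3 as the only PM2.5 array, and the highest, at row 427, lacks control 3. In this comparison 56.8% of all probes passed the same threshold. The median over all probes was 0.51 log2 units, and 57.3% of probes lay below Odf2l. Without PM2.5 2 the difference was 0.41. Both comparisons use the same 3 control arrays, so the closeness of 0.61 and 0.59 is not independent support for either.

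**Figure D2:**
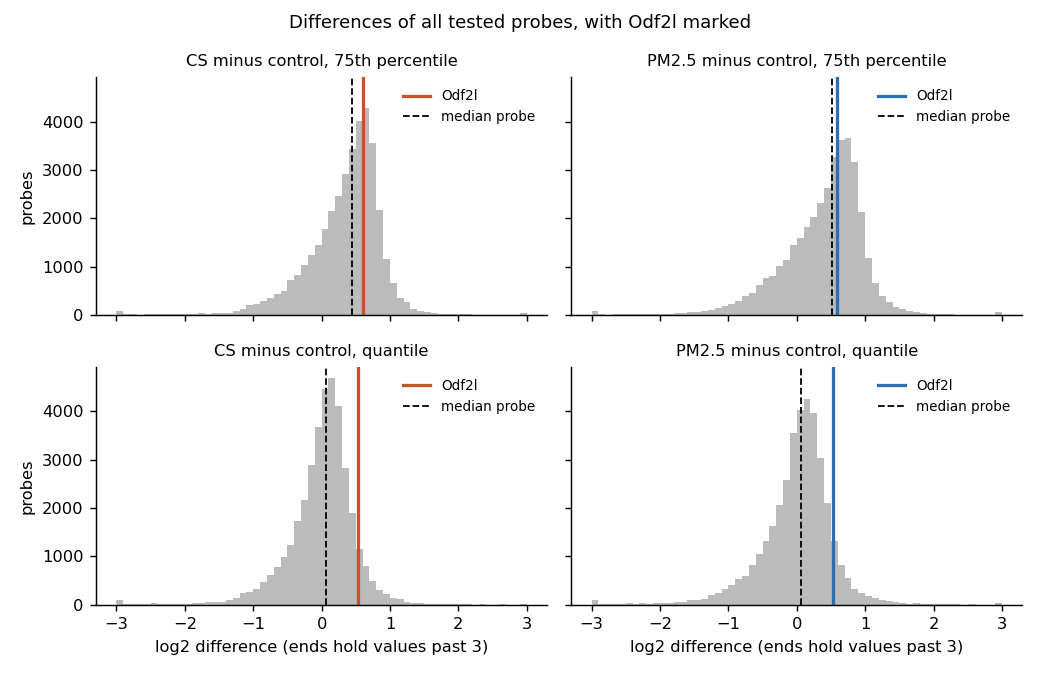
Number of probes by log2 difference from control (bins of 0.1), for CS on the left and PM2.5 on the right, after scaling to the 75th percentile (top) and after quantile normalization (bottom). Odf2l lies near the peak of all probes in the top row, where the median probe is at 0.45 and 0.51, and on the right flank in the bottom row, where the median probe is at 0.06 and 0.07.

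The size of the difference depended on what the arrays were scaled to. After quantile normalization, which gives all arrays the same distribution of signals, Odf2l was at 7.35, 7.37 and 7.43 on control, 7.98, 7.79 and 8.01 on CS, and 7.66, 8.33 and 7.77 on PM2.5 arrays 1 to 3. All exposed arrays were again above all control arrays, as for 16.6% of all probes. The differences from control were 0.54 in CS (SE 0.16) and 0.53 in PM2.5 (SE 0.16), against medians over all probes of 0.06 and 0.07. In this scaling 92.0% of probes had a smaller difference in CS and 90.6% in PM2.5.

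Centred on the median of the probes detected on all arrays, the differences were 0.22 in CS and 0.15 in PM2.5, and PM2.5 1 (1.36) lay below all control arrays (1.42 to 1.45). The medians over all probes were 0.06 in CS and 0.06 in PM2.5. As in the main scaling, 66.4% of probes had a smaller difference than Odf2l in CS and 57.3% in PM2.5. With no scaling the direction turned, at −0.13 in CS and −0.20 in PM2.5, while the median over all probes was −0.29 in each. Scaled to the other 49 catalogue probes, which like Odf2l have 10 spots each, the differences were 0.69 and 0.70. The medians over all probes were then 0.53 and 0.62. With no scaling and in this scaling the shares of probes below Odf2l were again 66.4% in CS and 57.3% in PM2.5. The ratio of Odf2l to the array's median probe was 2.96 to 3.04 on control arrays, 3.21 to 3.60 on CS arrays and 2.79 to 3.60 on PM2.5 arrays.

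**Figure D3:**
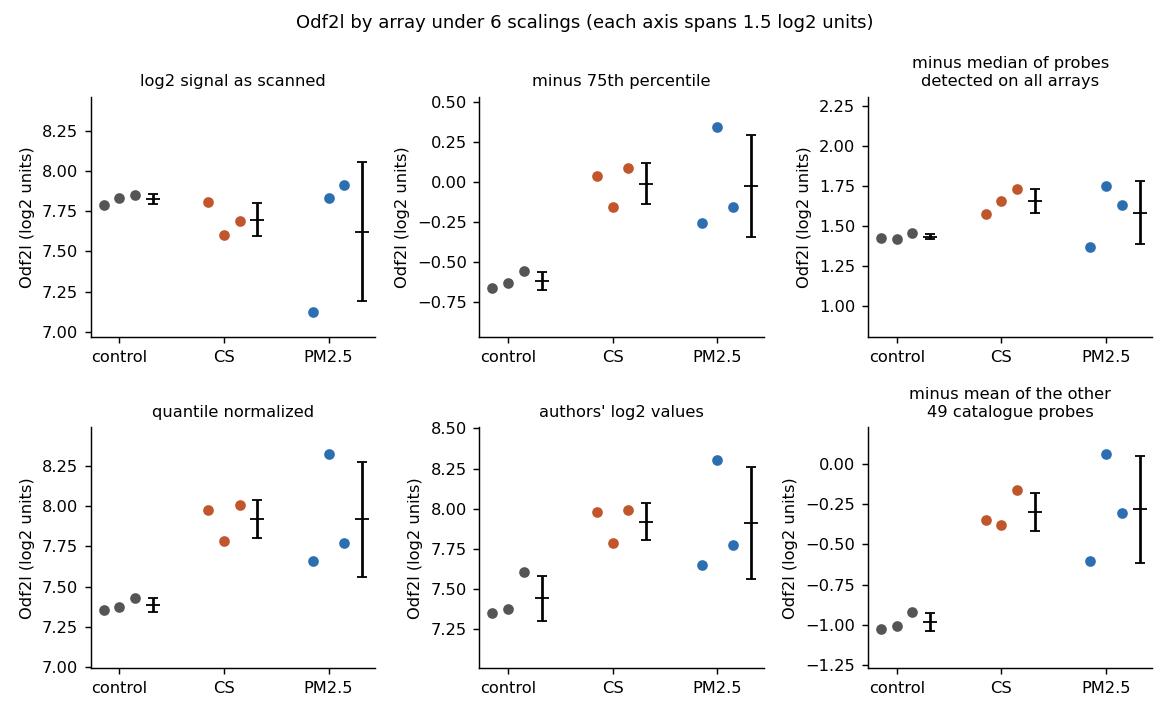
Odf2l level of each array under 6 scalings (log2 units, every axis spans 1.5), with the mean and SD of each group beside its 3 points. The exposed arrays lie above the control arrays after scaling to the 75th percentile, quantiles or the other catalogue probes, PM2.5 1 falls below control when arrays are centred on the median, and the direction turns in the signal as scanned.

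The authors' deposited log2 values for Odf2l were 7.35, 7.37 and 7.60 on control, 7.98, 7.79 and 7.99 on CS and 7.65, 8.31 and 7.77 on PM2.5 arrays 1 to 3. Here the lowest exposed array, PM2.5 1, was only 0.05 above the highest control array, control 3, and 16.8% of all probes had every exposed array above every control array. The deposited value of control 3 was 0.17 above the value that quantile normalization gave without the flagged spots, while the other 8 arrays differed by at most 0.02. When the flagged spots were kept, that array came to 7.60, and the values of all 9 arrays matched the authors' to within 1.58e-05. With the authors' values the differences from control were 0.48 in CS and 0.47 in PM2.5. The single bright spot on control 3 thus entered the authors' value of that array.

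Other fits kept the direction. With normexp background correction the differences from control were 0.45 in CS and 0.45 in PM2.5. With slide as a random block they were 0.58 and 0.60, each with an SE of 0.26 instead of 0.16. The smaller SE treats the 3 control arrays, all from 1 slide, as independent.

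CS and PM2.5 lungs were then compared directly. The higher level of Odf2l on the exposed arrays was known when it was chosen, so this contrast is not independent of that choice. Odf2l differed by 0.013 log2 units (95% confidence interval −0.36 to 0.38, adjusted p = 0.990 in limma with Benjamini-Hochberg adjustment over all probes), where 5.88% of all probes were called. The interval spans 0.780-fold to 1.31-fold, so with 3 arrays per group differences of that size remain possible. It is not a limit of detection, since a call rested on the p adjusted over all probes. The SE of 0.16 pools the 9 arrays, and it was 0.20 when the 6 exposed arrays were fitted alone. On the slide that carried 2 arrays of each exposure, CS minus PM2.5 was −0.078. Without PM2.5 2 the difference was 0.20, and without PM2.5 1 it was −0.10. With array weights it was 0.31 and was called (adjusted p = 0.00380 in limma), as were 44.1% of all probes, but this fit gave CS 3 a weight of 123 and the other 8 arrays weights of 0.125 to 3.06.

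**Figure D4:**
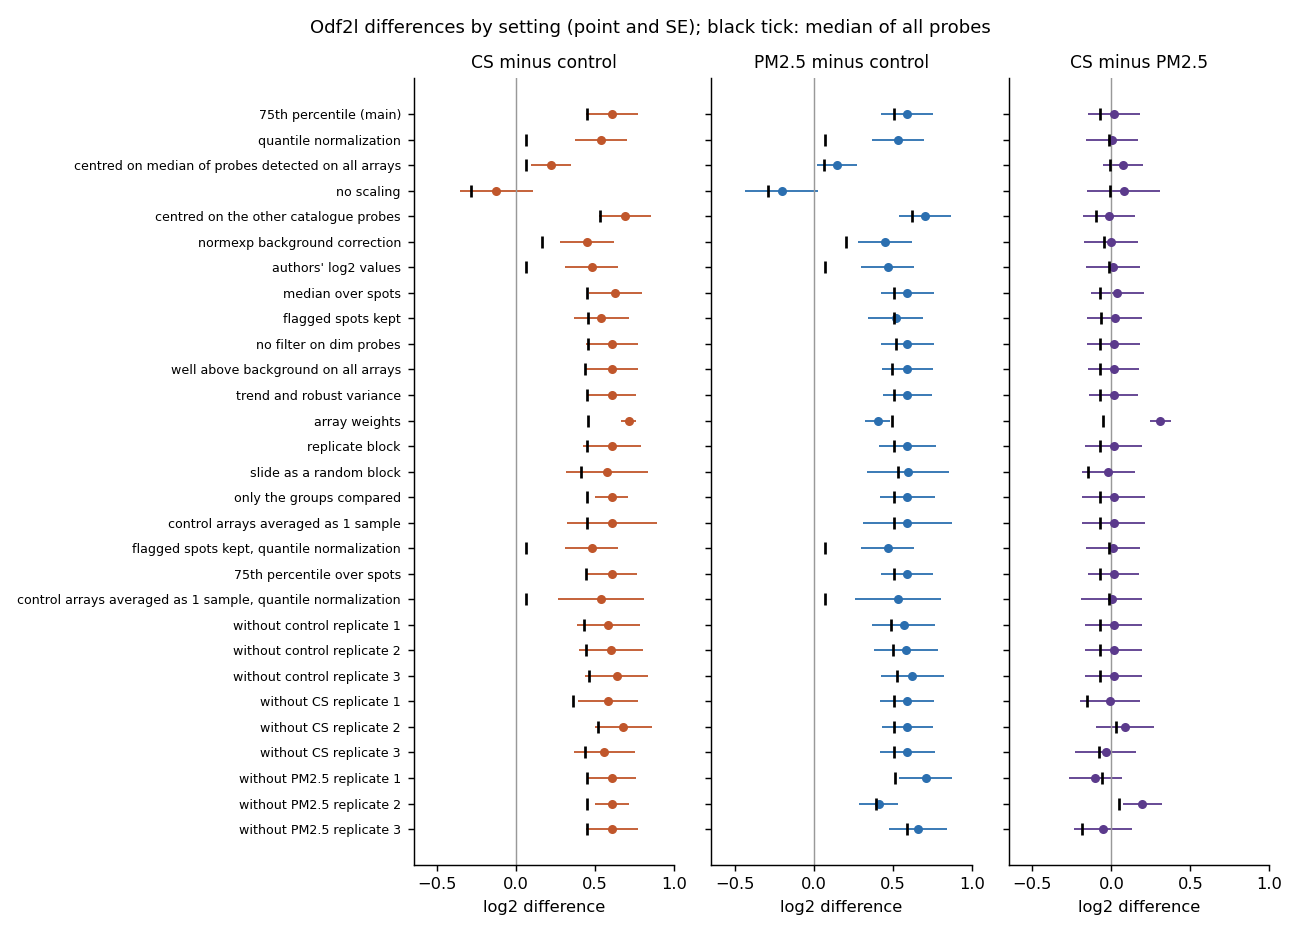
Log2 differences of Odf2l (points, with SE) from control in CS and in PM2.5, and between the exposures, under each setting, with the median difference of all probes as a black tick. The first 2 panels stay above 0 except with no scaling (−0.13 and −0.20). The third lies around 0, with its highest values with array weights (0.31) and without PM2.5 2 (0.20).

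Among the 29 named genes, Odf2l had the sixth largest rise in CS and in PM2.5 (rank 6 in both) after scaling to the 75th percentile. The order rests on small gaps. Its neighbours in CS were Slc28a2, a nucleoside transporter gene, and Pop7, a ribonuclease P subunit gene, at 0.61 and 0.59, with gaps far below the SE. In PM2.5 its neighbours were Gdnf, a neurotrophic factor gene (0.67), and P2rx2, an ATP-gated channel gene (0.57), which also lay within the SE of Odf2l. After quantile normalization Odf2l (0.54) ranked 1 in CS, but the next gene, Slc28a2 (0.51), lay well within the SE, and with the authors' values Odf2l ranked 4 in CS, behind Slc28a2 (0.52), Fgf2 (0.49) and Pop7 (0.49). In PM2.5 it ranked 2 in both, behind Enpp1, which encodes a pyrophosphate-making enzyme (0.90 after quantile normalization).

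The genes most like Odf2l across the 9 arrays were the growth factor gene Fgf2 (Pearson r 0.90), Gdnf (0.90), Napepld, an enzyme gene of lipid mediator synthesis (0.86), Lhcgr, a hormone receptor gene (0.85), and Map2, a microtubule-associated protein gene (0.81). These values have little weight, since the control arrays form a group of their own and the median r with Odf2l over all probes was 0.73. Over the 6 exposed arrays alone r was 0.49 to 0.66 for these 5 genes. After quantile normalization Map2 turned to −0.80 over the 9 arrays, Fgf2 was at 0.76 and the median over all probes was 0.16. Over the 6 exposed arrays in that scaling r was 0.25 for Fgf2, 0.44 for Lhcgr, 0.01 for Gdnf, −0.03 for Napepld and −0.12 for Map2. No p is given for any of these correlations, because they share arrays, slides and scaling.

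The genes least like Odf2l were Ldha, which encodes a lactate dehydrogenase subunit (r −0.98), and Cdh2, which encodes N-cadherin (−0.95), where the median over the 28 other named genes was −0.43. Over the 9 arrays after quantile normalization, where that median was −0.66, Cdh2 was lowest (−0.98), then Mex3c (−0.94) and Ldha (−0.94), and with group means removed Slc28a2 was lowest in the main scaling (−0.96). Ldha stood at 3.83, 3.78 and 3.75 on control, 3.19, 3.37 and 3.04 on CS and 3.37, 2.96 and 3.27 on PM2.5 arrays 1 to 3, in log2 units relative to the 75th percentile. The array with the most Odf2l, PM2.5 2, had the least Ldha, and the control arrays with the least Odf2l had the most. Over the 6 exposed arrays alone r was −0.95 for Ldha and −0.85 for Cdh2, and after quantile normalization these were −0.87 and −0.95. Both genes were picked as the lowest over the 9 arrays, which include these 6, so the values have little weight. In the main scaling Pld1 (−0.81) and Ndfip2 (−0.77) were also low over the exposed arrays, while Med16 was highest (0.72).

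**Figure D5:**
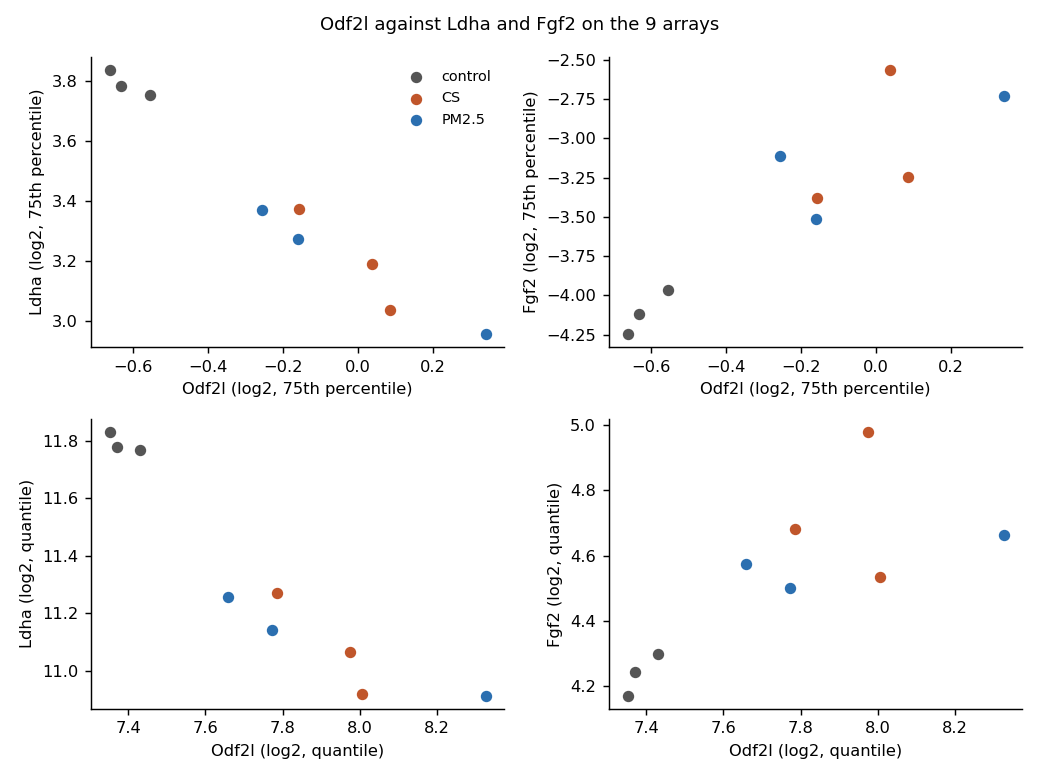
Ldha (left) and Fgf2 (right) against Odf2l on the 9 arrays, after scaling to the 75th percentile (top) and after quantile normalization (bottom), in log2 units, 1 point per array. Ldha falls as Odf2l rises among the 6 exposed arrays in both scalings (r −0.95 and −0.87), while the points for Fgf2 scatter more widely among the exposed arrays.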

How the data were processed

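Whole-lung RNA was labelled and read on 1-colour Agilent arrays. Per the file headers, the deposited intensity values come from Feature Extraction 11.0.1.1 and had background subtracted per array, with no normalization across arrays. Flags for outliers, saturation and background are deposited as other values for each spot. The authors' log2 values were not described in the sources used here. Quantile normalization of the mean log2 signal over all spots came within 0.01 of them for 97.8% of values.

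Outlier-flagged spots were left out, the log2 signals of the remaining spots were averaged per probe, and each array's 75th percentile over probes was subtracted. Of 38804 probes, 222 with no unflagged spot on some array were left out, as were 939 that did not exceed background clearly in every array of any group, which left 37643. Differences and SEs were computed in R 4.3.3 with limma 3.58.1 (lmFit, then eBayes, on group means of the 9 arrays), and a probe was called at a Benjamini-Hochberg adjusted p below 0.05. The fit was tested on simulated data with independent noise on each array. That simulation had no slides, so it does not bear on the slide layout here. Genes were named by matching accessions to RefSeq, which named 30 of 50 catalogue probes, 29 of them protein-coding. Beside Odf2l, the 5 named genes with the highest and the 2 with the lowest correlation with it were described, and its neighbours in the order of differences. The number of arrays limits the precision. The gene, the lists and the alternatives were chosen with earlier results of these data known.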

Additional observations from a re-analysis of the deposited data

How the results depend on the processing

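Of the alternatives, 3 were chosen after seeing the data, namely the percentile taken over spots, flagged spots kept with quantile normalization, and averaged controls with quantile normalization. The differences of Odf2l from control were positive in 27 of 28 alternatives in CS and in 27 of 28 in PM2.5, turning only with no scaling (−0.13 and −0.20). This count does not measure robustness, since several alternatives could not change the group means. Examples are other filters on dim probes, another variance estimate, the replicate block and, for CS, leaving out a PM2.5 array. Flagged spots kept with quantile normalization nearly repeat the authors' values. Centring on the median gave 0.22 and 0.15, against medians over all probes of 0.06 and 0.06. Leaving out 1 array gave 0.56 to 0.68 in CS and 0.41 to 0.71 in PM2.5.

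CS minus PM2.5 was −0.015 when scaled to the other catalogue probes, −0.0030 with normexp, −0.020 with slide as a random block, −0.078 with slide as a fixed block, −0.078 on the shared slide alone and 0.31 with array weights. Leaving out 1 array gave −0.10 to 0.20. Arrays with the same replicate number were not treated as pairs in the main fit. Same-number correlations were −0.45 to 0.18, and 1 of 6 exposed arrays correlated best with its own number. So few values cannot exclude pairing, since exposed arrays with the same number share an archive day. With the replicate block the 3 differences were 0.61, 0.59 and 0.013, and 12448, 17605 and 1204 probes were called.

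The counts were 2371, 7901 and 2364 with slide as a random block, and 17756, 21392 and 2214 with neither block. They were 9289, 11177 and 3288 after quantile normalization, 9094, 12524 and 2133 centred on the median, 10034, 11677 and 1087 with no scaling, 2304, 2965 and 482 with normexp, and 9326, 11229 and 3292 with the authors' values. Of the calls in CS against control, 14586 were higher and 3170 lower with the main scaling, 4455 and 4834 after quantile normalization, 2879 and 6215 centred on the median, 319 and 9715 with no scaling, 1185 and 1119 with normexp, and 4533 and 4793 with the authors' values. In PM2.5 against control these were 17712 and 3680, 5442 and 5735, 4770 and 7754, 540 and 11137, 1559 and 1406, and 5529 and 5700. The cause of these shifts was not tested.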

Other observations

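The reading of an Odf2l spot varied with its grid position, at some positions in the same direction on most arrays but by differing amounts. The Odf2l spot in grid row 54 read 0.13 log2 units below the array mean on average and was low on 9 of 9 arrays (−0.02 on control 1 to −0.22 on CS 3). These values include the flagged spots on CS 3, PM2.5 1 and PM2.5 2, set against means without them. The spot in row 333 read 0.08 above the array mean and was low on 1 of 9 (−0.0044 on PM2.5 1 to 0.24 on CS 1). Row 427 was low on 8 of 9, all but control 3, where it was flagged. Rows 135 and 323 were each low on 4 of 9. The difference between CS and control was smallest at row 54 (0.42), where 1 CS spot was left out, and largest at row 333 (0.67).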
